A study of Mus musculus with 6 samples.

Results

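Cycling macrophages of the mouse heart are described here, taken as cells that carry macrophage transcripts together with RNA of Mki67, the nuclear Ki-67 protein of dividing cells, and Top2a, the topoisomerase that untangles DNA during replication and mitosis. A kept cell had at least 1000 unique molecular identifiers (UMIs, each standing for 1 captured RNA molecule), at least 200 detected genes and at most 20% mitochondrial UMIs. The macrophage gate asked for at least 5 UMIs of Csf1r, Cd68, Fcgr1 and Lyz2 in sum, under 1% of UMIs from S100a8 and S100a9, at most 2 UMIs of Col1a2 and Cdh5, and none of Cd79a or Cd3e. Members were the gated cells with at least 2 UMIs of Mki67 and Top2a in sum, and the comparison cells were gated cells with 0. The rule found 270 members among 9422 gated macrophages, 30014 kept cells and 34940 deposited cells. Another 438 gated cells had exactly 1 such UMI and 8714 had 0. Because Mki67 and Top2a counts chose the members, their levels and those of every gene measured in the same cells are given as a description, with no test.

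The cells are live non-cardiomyocytes from the ventricles of male mice aged 8 to 12 weeks. Thermolysin and papain freed the cells, meshes held back cardiomyocytes, and cells positive for Calcein-AM and negative for DAPI were sorted before droplet sequencing with 10x 3' chemistry. Wild-type (WT) mice were of the strain C57BL/6JRj and knockout (KO) mice of the strain B6.Cg-Trpm4tm1.2-PG, which lacks the ion channel Trpm4; the labels name no Cre and no transgene. For each genotype there was 1 library at 24 h after a sham operation, 1 at 24 h after the left anterior descending (LAD) coronary artery was tied off (ligation) and 1 at 72 h after ligation, with no sham library at 72 h. Each library pooled 4 mice, so a group is 1 sample, no difference has a replicate check, and intervals below cover counting error only.

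A cell that divides first switches on E2F target genes for DNA synthesis in S phase and then, through FOXM1 and MYB complexes, the genes for chromosome condensation and the spindle in G2 and mitosis. Macrophages of the heart can renew by division in place, driven by the growth factor CSF1 through its receptor CSF1R, and after infarction the pool is also fed by blood monocytes that carry Ly6C and CCR2. Monocytes that become tissue macrophages lose Ly6c2, Plac8 and Chil3 transcripts and gain complement C1q, the mannose receptor Mrc1 and MHC class II.

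Promoters of the division genes are shown first, since these genes set the members apart. Sequences are RefSeq windows of the 250 bases before the transcription start (GRCm38.p6), 5′ to 3′ on the gene's strand. Capitals mark the motifs searched on both strands, which were TTTGAA (the cell cycle homology region, CHR), CCAAT (bound by NF-Y) and, for E2F, TTTCCCGC or TTTGGCGC; none of these letters overlap another motif's. Hmgb2 (chr8:57511593-57511842, plus strand), a chromatin protein on the G2/M list, holds 6 matches. Mcm6 (chr1:128359706-128359955, minus strand), a subunit of the replicative helicase on the S phase list, holds 2 E2F and 2 CCAAT matches. Birc5 (chr11:117848987-117849236, plus strand), survivin of the chromosomal passenger complex, holds 0 of these letters.
Hmgb2: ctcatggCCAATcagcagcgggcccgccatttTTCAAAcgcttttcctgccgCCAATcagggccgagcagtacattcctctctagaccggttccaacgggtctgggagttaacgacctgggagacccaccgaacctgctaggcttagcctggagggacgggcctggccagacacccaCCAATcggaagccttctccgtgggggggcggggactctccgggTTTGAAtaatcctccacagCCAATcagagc
Mcm6: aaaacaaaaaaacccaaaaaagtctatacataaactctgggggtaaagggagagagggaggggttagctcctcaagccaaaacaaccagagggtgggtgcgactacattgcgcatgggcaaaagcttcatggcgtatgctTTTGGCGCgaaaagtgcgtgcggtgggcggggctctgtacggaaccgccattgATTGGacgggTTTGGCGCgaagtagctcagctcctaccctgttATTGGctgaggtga
Birc5: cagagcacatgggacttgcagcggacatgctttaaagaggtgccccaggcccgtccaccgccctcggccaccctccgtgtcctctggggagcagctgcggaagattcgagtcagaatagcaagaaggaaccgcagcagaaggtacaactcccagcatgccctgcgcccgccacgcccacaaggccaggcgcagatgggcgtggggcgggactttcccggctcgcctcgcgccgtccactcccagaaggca
Of the 54 G2/M genes 47 matched the RefSeq table, with 52 windows, and of the 43 S phase genes 31 matched, with 34 windows. The CHR letters were in 36.5% of G2/M windows, 17.6% of S phase windows and 16.0% of all 32851 windows. The E2F letters were in 23.5% of S phase windows, 3.85% of G2/M windows and 1.30% of all windows. CCAAT was in 75% of G2/M windows, 67.6% of S phase windows and 33.8% of all windows, and CHR and CCAAT stood together in 30.8% of G2/M windows against 5.55% of all. A match is a description of the letters, not evidence of binding.

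The libraries differ in depth. Median UMIs of the comparison cells lay between 9495.5 and 11525 in 5 libraries and at 2580.5 in the KO 72 h library. The members were deeper than the comparison cells in every library: their medians ran from 15760.5 to 24700 in those 5 libraries, and the KO 72 h members had 8737. Of 34940 deposited barcodes 118 occurred in 2 or more libraries, none of them a member. The KO 72 h library also held more RNA of other cell types. Hemoglobin genes, the erythroid markers used, stood at 911 CPM (UMIs per 1000000 UMIs of the class) in its comparison cells against 8.08 CPM in the WT 72 h library. Fibroblast markers stood at 340 against 5.01 CPM. Each result from the KO 72 h library thus carries that background, whose part was not tested. Trpm4 itself was read by 9 UMIs in WT sham members, 0 in KO sham, 0 in WT and 1 in KO ligation 24 h, and 9 in WT and 1 in KO ligation 72 h. In comparison cells Trpm4 stood at 6.83 CPM in WT and 6.08 CPM in KO sham, so these 3' counts do not check the genotype, and the deleted stretch is not given in the sources used here.

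The members were few at 24 h and many at 72 h. Sham WT hearts gave 18 of 1182 gated macrophages (1.52%, exact 95% interval 0.905 to 2.40%) and sham KO hearts 10 of 870 (1.15%, 0.553 to 2.10%). At 24 h after ligation there were 12 of 694 in WT (1.73%, 0.897 to 3.00%) and 8 of 1644 in KO (0.487%, 0.210 to 0.957%). At 72 h after ligation there were 159 of 2484 in WT (6.40%, 5.47 to 7.44%) and 63 of 2548 in KO (2.47%, 1.91 to 3.15%). Thus 222 of the 270 members came from the 72 h libraries, although the intervals of both sham libraries and of WT ligation 24 h overlap that of KO 72 h. The 72 h libraries were also highest per UMI: Mki67 and Top2a together stood at 66.1 CPM of all gated cells in WT 72 h and 43.2 CPM in KO 72 h, against 20.5 and 10.3 CPM in the sham pair and 6.05 and 4.21 CPM in the ligation 24 h pair, WT first. Since the 72 h time has no sham library, time after surgery and ligation cannot be told apart. In a droplet library stray RNA gives some UMIs to every cell; among cells with at least 1% of UMIs from S100a8 and S100a9, mostly neutrophils, which have largely left the cell cycle, the share with 2 or more such UMIs was between 0.138% and 0.512% in 5 libraries and 1.02% in KO 72 h. These cells had median UMIs of 1805 to 3349, below the medians of gated macrophages in the same libraries, so the 2 shares are not at equal depth.

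**Figure D1:**
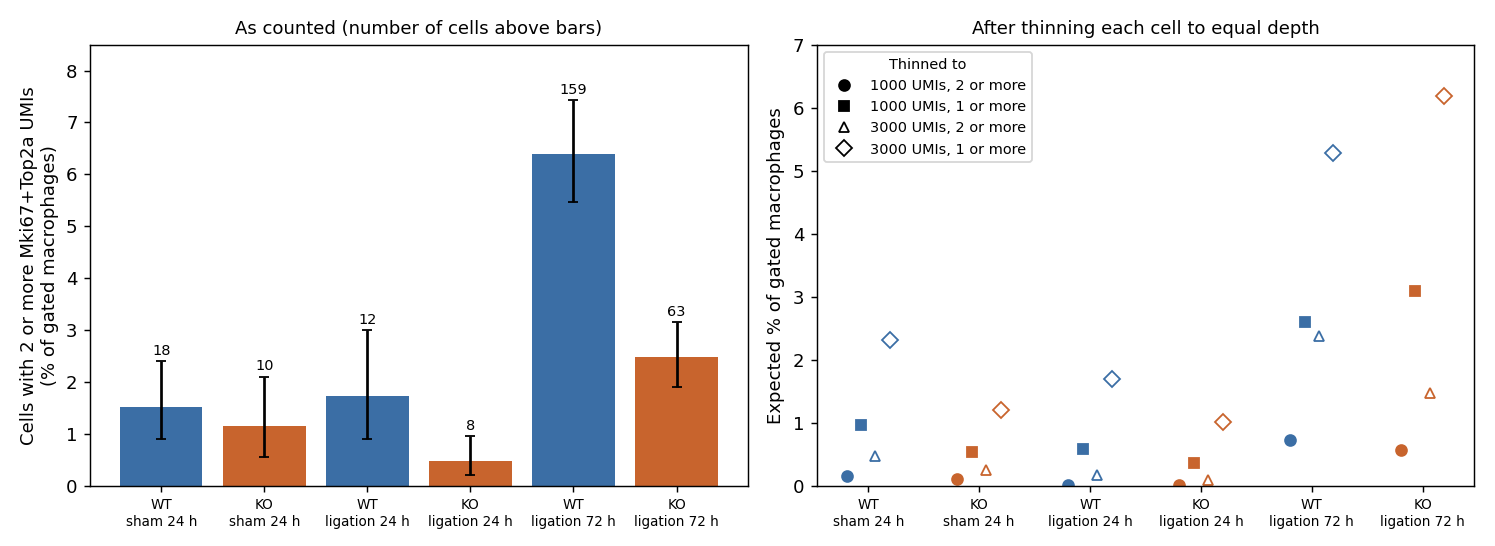
Left, members as a percentage of gated macrophages in each of the 6 libraries, with exact 95% intervals and the number of members; right, the expected percentage with at least 1 or at least 2 Mki67 and Top2a UMIs once each cell is thinned to 1000 or 3000 UMIs. Both 72 h libraries stand above the 24 h libraries of the same measure, while the order of WT and KO at 72 h depends on the measure.

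Whether KO hearts held a smaller share than WT at 72 h depended on how depth was treated. As counted, the KO share was 0.386 times the WT share (interval 0.290 to 0.514). With cells of at least 5000 UMIs only, the ratio was 0.679, and per UMI of the gate it was 0.654. After thinning every cell to 1000 UMIs, the expected share with at least 2 UMIs was 0.719% in WT and 0.565% in KO, a ratio of 0.786. With at least 1 UMI after the same thinning the shares were 2.59% in WT and 3.09% in KO, and the ratio turned to 1.19. Thinning to 3000 UMIs, which left out 1444 KO and 109 WT gated cells, gave 2.38% against 1.46% for at least 2 UMIs and 5.28% against 6.19% for at least 1. The direction of the difference between the genotypes is thus not settled at this depth. The 24 h shares with at least 1 UMI after thinning to 1000 UMIs were 0.964% in WT and 0.541% in KO sham, and 0.587% in WT and 0.361% in KO ligation 24 h, all below both 72 h values.

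The label of a dividing cell was checked against 2 gene lists that leave out Mki67 and Top2a: 43 S phase genes and 54 G2/M genes in common use. In cells of at least 5000 UMIs, a member was counted as carrying a division program where its S phase or G2/M share exceeded the 99th percentile of the comparison cells of its library. In WT 72 h 135 of 155 members did so, 17 by the S phase list alone, 51 by the G2/M list alone and 67 by both. In KO 72 h 25 of 38 did, and of the 48 members of the 24 h libraries 19 did. By construction about 2% of comparison cells pass either percentile, from 1.91 to 2.22% over the libraries. The label thus held for most members at 72 h, and the data went against it for most at 24 h.

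The doubtful members were those just inside the threshold. Of all 270 members 98 had exactly 2 UMIs of Mki67 and Top2a, 25 had exactly 3 and 80 had at least 10. At 24 h 28 of the 48 members had exactly 2, and 3 of these 28 passed the S phase or G2/M percentile, against 16 of the 20 with 3 or more. At 72 h, among cells of at least 5000 UMIs, 23 of 50 with exactly 2 passed and 137 of 143 with 3 or more. By library, those with exactly 2 that passed were 20 of 38 in WT and 3 of 12 in KO. Just outside the threshold, 8 of 157 cells with exactly 1 UMI passed at 24 h and 36 of 190 at 72 h. Members at 24 h are called by the rule below, not as dividing cells. Both genes were detected in 164 members, Mki67 alone in 64 and Top2a alone in 42.

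The division program was graded with the count of Mki67 and Top2a. In WT 72 h the G2/M list summed to 997 CPM in cells with 0, 1323 with 1, 1824 with 2, 3655 with 3 to 4, 5594 with 5 to 9 and 8847 with 10 or more. The S phase list went less steeply along the same cells, from 523 CPM at 0 through 2130.2 at 2 to 3869.9 at 5 to 9, and was 3564 CPM at 10 or more. In KO 72 h the G2/M list went from 1123 CPM at 0 to 16489.5 CPM in the 6 cells with 10 or more, while the S phase list peaked at 2777 CPM at 5 to 9 and was 1561 CPM in those 6 cells. In both 72 h libraries the cells with the most Mki67 and Top2a thus held mostly G2/M transcripts, and S phase transcripts were highest in the step before. In the ligation 24 h WT library no member had 10 or more UMIs, and the 8 members with exactly 2 had 355 CPM of the S phase list against 368 CPM in cells with 0, and 1293 against 957 CPM of the G2/M list. In members with exactly 2 of the other 24 h libraries the S phase list stood at 844 against 460 CPM in WT sham, 477 against 441 CPM in KO sham and 734 against 365 CPM in KO ligation 24 h.

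**Figure D2:**
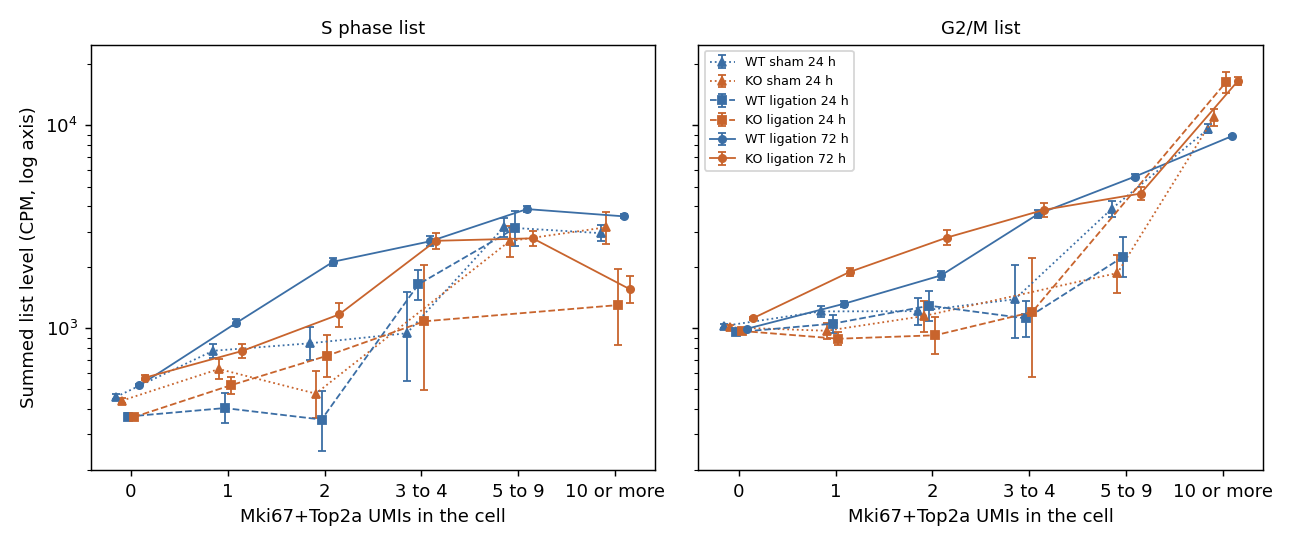
Summed CPM of the S phase list (left) and the G2/M list (right) on a log axis against the Mki67 and Top2a UMIs of the cell, 1 line a library, with exact 95% Poisson intervals; lines pass over steps that hold no cell. G2/M levels at 10 or more UMIs lie between 8847 and 16489.5 CPM in the 5 libraries that hold such cells, and those at exactly 2 UMIs lie between 925 and 1293 CPM at 24 h, beside 957 to 1028 CPM at 0.

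Single members differed in their shares of the S phase and G2/M lists, and many at 72 h were high in both. In WT 72 h the median member gave 0.263% of its UMIs to the S phase list and 0.442% to the G2/M list, against medians of 0.0405% and 0.0965% in comparison cells of at least 5000 UMIs. The median KO 72 h member gave 0.0903% to the S phase list and 0.309% to the G2/M list. The S phase list outweighed the G2/M list in 65 of 159 WT and 10 of 63 KO members. The KO members came from shallower cells, in which 2 UMIs of Mki67 and Top2a ask for a higher level of both genes; the part of that in the phase makeup was not tested.

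**Figure D3:**
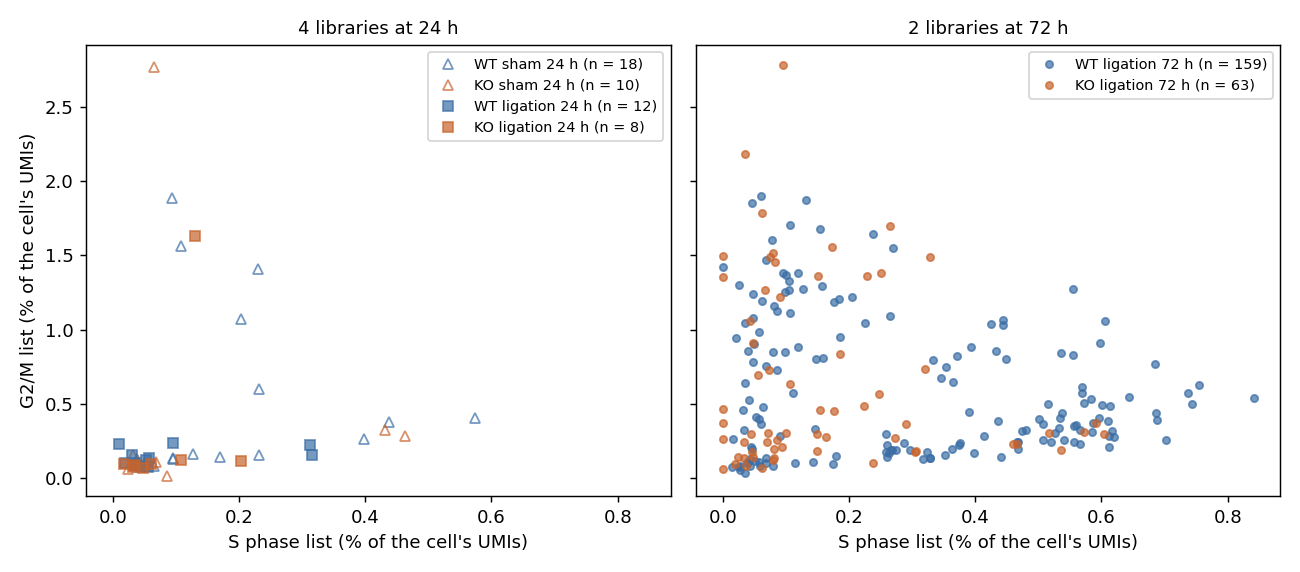
Each point is 1 member: the percentage of its UMIs from the S phase list on the x axis and from the G2/M list on the y axis, for the 4 libraries at 24 h (left) and the 2 at 72 h (right). Most members of the 24 h libraries sit near the origin, while those of 72 h spread along both axes.

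Macrophage identity was read from genes outside the gate, since the gate itself asked for Csf1r, Cd68, Fcgr1 and Lyz2. Without Lyz2, lysozyme, which leaks into many droplets, 32 members would have missed the gate of 5 UMIs, 22 of them in KO 72 h. Complement C1q genes (C1qa, C1qb and C1qc), made by tissue macrophages, gave at least 5 UMIs in 14 of 28 sham members, 8 of 20 at ligation 24 h and 182 of 222 at 72 h. By library it was 8 of 18 WT and 6 of 10 KO sham members, and 3 of 12 WT and 5 of 8 KO members at ligation 24 h. C1q thus marked most members at 72 h, and at 24 h most of the few KO members but not most WT ones. The same count was not taken in comparison cells. Transcripts of other cells were present too: over 50 UMIs of neutrophil markers in 8 of the 270 members, over 10 of endothelial markers in 5 and over 10 of fibroblast markers in 7, the last 7 all from the KO 72 h library. Ccr2, the chemokine receptor of monocytes and their progeny, was detected in 195 of 270 members. Its detection in the shallower comparison cells is not given. In level Ccr2 was lower in members than in comparison cells in both 72 h libraries. With comparison cells weighted to the UMI distribution of the members, its log2 ratios were -0.30 in WT and -0.81 in KO. Timd4, a marker of long-lived resident macrophages, was detected in 1 member, of the KO sham library, and the scavenger receptor gene Cd163 in 28.

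Some sham members carried dendritic cell transcripts. Of the 28 sham members, 8 carried at least 3 UMIs of dendritic markers (5 in WT and 3 in KO), against 0 of 20 at ligation 24 h and 9 of 222 at 72 h. Among comparison cells, which were shallower, 52 of 1105 in WT and 39 of 832 in KO sham did so. At ligation 24 h it was 24 of 659 in WT and 55 of 1582 in KO, and at 72 h 82 of 2194 and 54 of 2342. The 8 sham cells held 19 UMIs of Flt3, the growth factor receptor of dendritic cells, and 54 of the lectin Cd209a, of which the other 20 held 0. Cd74, the MHC class II invariant chain, stood at 14365 CPM in the 8 and 2628 CPM in the 20, whereas Csf1r stood at 114 and 287 CPM, and Mertk at 0 UMIs in the 8 against 14 in the 20. They are kept as the rule gives them. In the WT ligation 24 h library 1 member carried part of the neutrophil precursor list, with 158 UMIs of Prtn3, 131 of Mpo and 92 of Ctsg, granule proteases and peroxidase. The list's Ngp, Camp and Ltf gave 0 UMIs in it, as did C1q, Cd68 and Fcgr1. It also held 10 UMIs of Kit, 5 of Cd34 and 18 of Nkg7. Whether it was a neutrophil precursor or another progenitor was not tested. Without that cell the S phase list of this library's members went from 1286 to 945 CPM and the G2/M list from 1377 to 1214 CPM, against 368 and 957 CPM in its comparison cells.

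In summed CPM, MHC class II levels of the members stood above those of comparison cells only in sham hearts. In KO sham this rested on cells with dendritic transcripts. The list, 7 genes of antigen presentation, summed to 13152 CPM in members of WT sham and 13931 CPM in those of KO sham. It summed to 231 and 1355 CPM in members at ligation 24 h and to 7662 and 8059 CPM at 72 h, WT first. Comparison cells of the same libraries had 8529, 7583, 4100.3, 5189, 9860 and 9726 CPM in that order. The members were thus higher than their comparison cells in both sham libraries and lower in the other 4. Without cells of at least 3 dendritic UMIs in either class, a setting chosen after seeing the data that left 13 WT and 7 KO sham members, the sham members stood at 7785 against 6360 CPM in WT and at 741 against 5429 CPM in KO, so the KO sham direction rested on 3 cells. Without the same cells the S phase list of KO sham members went from 1493 to 494 CPM, against 442 CPM in comparison cells. Their G2/M list stood at 3649 CPM, but 1 of these 7 cells gave 338 of its UMIs. The other 6, each with exactly 2 UMIs of Mki67 and Top2a, stood at 1150 CPM of the G2/M list. The comparison cells stood at 1009 CPM. A cell with over 1% of its UMIs from these genes was found among 9 of 28 sham members, 0 of 20 at ligation 24 h and 49 of 222 at 72 h. Of such cells, 6 in sham and 9 at 72 h carried at least 3 dendritic UMIs.

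Gene ratios were taken for the 2 libraries with at least 30 members, WT and KO 72 h, over 8991 genes with at least 50 UMIs over members and comparison cells in each. In both libraries 303 genes (3.37%) were at least 2-fold higher in members and 173 (1.92%) at least 2-fold lower. Because the rule picked cells by division genes, these counts describe the contrast and nothing is read from them as support. Of the 303 genes 77 were on the S phase, G2/M, cyclin or chromatin lists, of which 92 genes could be measured, and 226 were on none of them. The median log2 ratio over all genes was 0.05 in WT and 0.08 in KO. The comparison cells had fewer UMIs, and when they were weighted to the UMI distribution of the members, 290 genes were 2-fold higher (242 of them among the 303) but only 61 were 2-fold lower (51 of them among the 173). The count of lower genes thus shrank by more than 1.5 times.

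Replication genes were higher throughout. Of 43 S phase genes 30 could be measured in both libraries, 30 of them were higher in members (40.2% of all genes were higher in both) and 25 at least 2-fold; the remaining 13 had too few UMIs in 1 of the libraries. Pcna, the sliding clamp of DNA polymerase, stood at 371 CPM in WT and 219 CPM in KO members against 93.3 and 86.8 CPM in comparison cells. The same gene in members of the 24 h libraries stood at 161 CPM in WT and 124 CPM in KO sham, and at 190.2 CPM in WT and 136 CPM in KO ligation 24 h. Gmnn, geminin, which blocks a second round of origin licensing, stood at 189 and 115 CPM against 22.8 and 23.5 CPM. Mcm6, whose promoter is shown above, stood at 165 and 114 CPM against 25.6 and 21.9 CPM, log2 ratios of 2.68 and 2.37. The median S phase gene had a log2 ratio of 3.31 over 43 genes in WT and 2.02 over 30 in KO. Over the same 30 genes the WT median was 2.77, and with comparison cells weighted by UMIs these 30 genes had medians of 1.88 in WT and 1.90 in KO. Part of the gap thus went with the genes measured and the remainder was not seen under weighting.

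Nucleotide supply went with replication. Of 18 genes of nucleotide synthesis 17 could be measured, all 17 were higher and 8 were at least 2-fold higher, among them Rrm1, Rrm2, Tyms, Tk1 and Dut. Dut, which clears dUTP, stood at 199 CPM in WT and 92.0 CPM in KO members against 15.7 and 24.5 CPM. Tyms, thymidylate synthase, stood at 125 and 59.8 CPM against 5.79 and 12.3 CPM. Rrm2, the S phase subunit of ribonucleotide reductase, stood at 103 CPM in WT but 21.5 CPM in KO members, against 0.593 and 4.08 CPM. The KO comparison cells thus held more of these transcripts than the WT ones, which lowers the KO ratios; stray RNA and undetected dividing cells in shallow droplets cannot be told apart here.

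Mitotic genes had the largest ratios. Of 54 G2/M genes 41 could be measured, 41 were higher and 37 at least 2-fold, with median log2 ratios of 5.32 over 52 genes in WT and 3.54 over 41 in KO. Over the same 41 genes the WT median was 4.69. With comparison cells weighted by UMIs these genes had medians of 4.11 in WT and 3.91 in KO. Hmgb2 stood at 1037 CPM in WT and 1037 CPM in KO members against 146 and 202 CPM in comparison cells, and at 1177 CPM in WT sham members. Values of WT sham members here include 5 cells with at least 3 dendritic UMIs. Without such cells, a setting chosen after seeing the data, their G2/M list went from 5005 to 3017 CPM, against 1026 CPM in comparison cells. The part of those cells in single genes was not tested. Birc5, with none of the searched letters in its promoter window, stood at 384 and 308 CPM against 2.89 and 13.1 CPM. Birc5 was at 213 CPM in WT sham, 54.4 CPM in KO sham and 104 CPM in KO ligation 24 h members, and at 0 UMIs in the 12 members of WT ligation 24 h. Ube2c, the ubiquitin-conjugating enzyme of the anaphase-promoting complex, stood at 265 and 333 CPM against 2.45 and 9.34 CPM at 72 h, at 187 CPM in WT sham, 173 CPM in KO sham and 367 CPM in KO ligation 24 h members, and again at 0 UMIs in WT ligation 24 h. In KO ligation 24 h all UMIs of Birc5 and of Ube2c came from 1 of the 8 members, and 1 member gave 288 of the 390 G2/M UMIs, without which the list stood at 946 CPM against 971 CPM in comparison cells. In KO sham Ube2c came from 1 and Birc5 from 2 of the 10 members. Jpt1, a microtubule-associated protein counted on the G2/M list, stood at 514 and 451 CPM against 364 and 311 CPM, a log2 ratio of only 0.50 and 0.54.

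The cyclins divided by their role. Ccna2, cyclin A2 of S phase and G2, stood at 105 CPM in WT and 79.8 CPM in KO members against 0.297 and 3.99 CPM, and Ccnb2, a mitotic cyclin B, at 117 and 150.3 CPM against 2.30 and 8.34 CPM. Their kinase Cdk1 stood at 158 and 101 CPM against 3.37 and 7.35 CPM. The D-type cyclins, which receive growth factor signals in G1, were closer to their comparison level: Ccnd1 had log2 ratios of 0.94 and 1.09, Ccnd2 of -0.38 and -0.25 and Ccnd3 of -0.21 and -0.07. With weighted comparison cells Ccnd1 had 0.43 and 0.63 and Ccnd2 -0.92 and -0.36, and Ccnd3 turned to 0.22 and 0.33. Of 12 genes on the list 10 could be measured, with 5 at least 2-fold higher and none 2-fold lower.

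Regulators of the program were low in count but higher in members. Of 11 E2F, MYB and FOXM1 genes 7 could be measured, all were higher (6 of 7 with weighted comparison cells) and 4 were at least 2-fold higher, E2f1, Rbl1, Lin54 and Lin9. E2f1, an activator of S phase genes, stood at 53.4 and 41.4 CPM against 14.7 and 10.1 CPM. Foxm1, the activator of mitotic genes, stood at 20.3 and 19.9 CPM against 0.371 and 1.09 CPM, under the count needed for a ratio in both libraries. Of 12 inhibitors and brakes 9 could be measured, of which 4 were higher and 4 lower in both libraries. With weighted comparison cells 6 were higher and 3 lower in both. Cdkn2c, an inhibitor of CDK4 and CDK6, was at least 2-fold higher at 53.1 and 41.4 CPM against 4.34 and 5.17 CPM. The antiproliferative genes Btg1 (log2 -1.21 and -1.44) and Btg2 (-1.49 and -1.23) were lower. With weighted comparison cells Btg1 had -0.36 and -1.23 and Btg2 -0.40 and -0.98, so neither stayed 2-fold lower in both. Cdkn1a, p21, had log2 ratios of -0.68 and -0.56, weighted -0.38 and -0.25.

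Genes outside the lists with the highest median ratios were of the same kind. Pclaf, a PCNA-binding factor of replication, stood at 386 CPM in WT and 209 CPM in KO members against 2.34 and 10.9 CPM, and at 255 CPM in WT sham members and 0 UMIs in both ligation 24 h libraries. Prc1, which bundles the midzone of the spindle, stood at 98.2 and 126 CPM against 1.15 and 3.45 CPM. The linker histone Hist1h1b stood at 461 and 417 CPM against 9.64 and 18.8 CPM, and the core histones Hist1h2ap, Hist1h2ae and Hist1h4d had log2 ratios of 5.14, 4.99 and 2.73 in WT and 3.97, 3.89 and 1.88 in KO. Histone genes of this cluster are near-identical copies and lack poly(A) tails in most forms, so their counts are uncertain. Smc2 of condensin, the DNA ligase Lig1, the helicase subunit Mcm7 and Dut complete the 10.

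**Figure D4:**
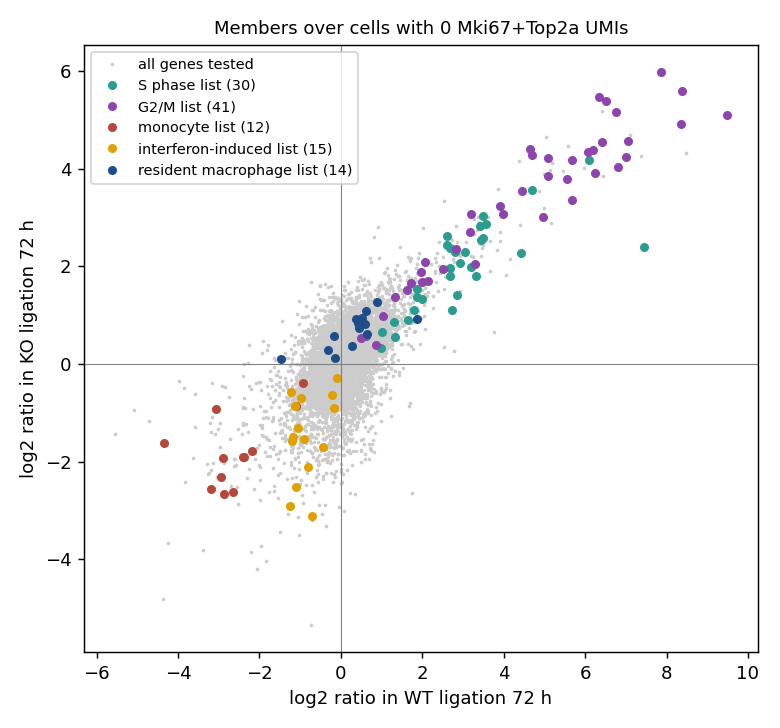
Each point is 1 of the 8991 genes, with its log2 ratio of members to comparison cells in WT 72 h on the x axis and in KO 72 h on the y axis. S phase and G2/M genes lie up and right, monocyte genes down and left, and resident macrophage genes near the origin.

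Chromatin genes of dividing cells were higher and growth genes barely so. Of 16 chromatin genes all 16 were higher and 15 at least 2-fold; H2afz, a histone variant, stood at 2365 CPM in WT and 1850.1 CPM in KO members against 724 and 791 CPM, and Stmn1, stathmin, at 1037 and 735 CPM against 35.4 and 62.7 CPM. Of 17 MYC and ribosome biogenesis genes 16 were higher in both libraries but 0 at least 2-fold, with Npm1, nucleophosmin, at 1059 and 859 CPM against 616 and 648 CPM. The list's summed level was 1.44 times that of the comparison cells in WT and 1.24 times in KO.

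Monocyte genes were lower in members at 72 h. Of 12 monocyte genes 12 were lower in both libraries (28.6% of all genes were) and 9 at least 2-fold. The list summed in members to 1304 CPM (WT) and 1885 CPM (KO) against 4289 and 4513 CPM in comparison cells. At 24 h it summed to 4353 and 4009 CPM in sham members and to 8125 and 3021 CPM in ligation members, WT first, against 7135, 6632, 8841 and 8366 CPM. Members were below their comparison cells in each of the 6 libraries. With weighted comparison cells 12 of 12 were still lower at 72 h and 7 at least 2-fold: Ly6c2, Plac8, Vcan, Chil3, Ifitm6, Hp and F10.

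Ly6c2, the surface protein of classical monocytes, stood at 43.8 CPM in WT and 29.1 CPM in KO members against 320 and 184 CPM, log2 ratios of -2.87 and -2.66 and weighted ratios of -1.28 and -2.20. Plac8 stood at 182 and 176 CPM against 1148 and 1088 CPM, with weighted ratios of -1.31 and -2.08. Chil3, a chitinase-like protein of monocytes, stood at 129 and 207 CPM against 590.0 and 710.1 CPM, with weighted ratios of -1.14 and -1.40. In WT ligation 24 h, where the summed list was 0.919 times the comparison level, 6 of 12 monocyte genes were higher in members and 4 at least 2-fold, among them Plac8 at 1680.2 CPM against 695 CPM. Other genes with the lowest median ratios were Hp, haptoglobin, Thbs1, thrombospondin, Slpi, a protease inhibitor, Slfn1, Ifitm6, Ms4a4c and Gsr, glutathione reductase. Their log2 ratios ran from -3.14 for Thbs1 to -1.54 for Gsr in WT and from -2.78 for Slfn1 to -1.90 for Ifitm6 in KO. Weighted, Hp had -1.48 and -1.73, Thbs1 -1.91 and -1.70, Slfn1 -1.48 and -2.19, and Ifitm6 -1.13 and -1.57. Slpi went the other way in 3 libraries at 24 h, with 2892 CPM in KO sham members, carried by 2 of the 10 cells, against 284 CPM, 3419 CPM in WT ligation 24 h against 494 CPM and 1905 CPM in KO ligation 24 h against 496 CPM. Weighted, Ms4a4c at 72 h had -0.39, Slpi -0.94 and Gsr -0.84 in WT, no longer 2-fold.

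Resident macrophage genes were a little higher at 72 h. Of 15 genes 14 could be measured, 10 were higher in both libraries and 0 at least 2-fold, and the summed list of members stood at 13159.8 (WT) and 13189 CPM (KO) against 10635 and 7809.9 CPM. With weighted comparison cells 10 were higher in both and 1 was lower, with median log2 ratios of 0.26 in WT and 0.57 in KO. C1qa stood at 2934 and 3051 CPM against 2037 and 1596 CPM, with weighted log2 ratios of 0.32 and 0.70. Mrc1, the mannose receptor, stood at 401 and 459 CPM against 218 and 189.8 CPM. Lyve1, a hyaluronan receptor of resident cells, was detected in 1 of 159 WT and 6 of 63 KO members, but 4 of the 6 had 0 UMIs of C1q, 4 to 10 UMIs of endothelial markers and at most 1986 UMIs in all. In the sham libraries the same list was lower in members, at 6339.8 against 8138 CPM in WT and 9190.4 against 9706 CPM in KO. Without cells of at least 3 dendritic UMIs it stood at 7987 against 8471 CPM in WT sham and 14195 against 10166 CPM in KO sham, so the KO direction turned.

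Interferon-induced genes were lower in members at 72 h, and most inflammatory genes were. Of 16 interferon-induced genes 15 could be measured, 15 were lower in both libraries and 5 at least 2-fold: Ifit2, Ifit3, Isg15, Oasl1 and Ifi47. Isg15, a ubiquitin-like modifier, stood at 190.4 CPM in WT and 92.0 CPM in KO members against 438 and 273 CPM. With weighted comparison cells 13 of the 15 were lower in both and 4 at least 2-fold, Ifit1, Ifit2, Ifit3 and Rsad2, while Isg15 had -0.91 and -1.02, Oasl1 -1.03 and -0.95 and Ifi47 -0.87 and -1.11. Of 15 inflammatory genes 14 could be measured, of which 10 were lower in both libraries and 2 higher, Tnf and Ccl3; weighted, 8 were lower and 3 higher. The 2 genes at least 2-fold lower were Il1b, the cytokine interleukin-1 beta, at 95.2 and 199 CPM against 384 and 626 CPM, and the chemokine Cxcl3 at 4.01 and 7.67 CPM against 76.4 and 98.0 CPM. Cxcl3 kept log2 ratios of -4.26 and -3.50 when weighted, whereas Il1b had -0.56 and -1.28.

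The other lists were less far from their comparison level or mixed in direction, apart from p53 targets. MHC class II had 7 of 7 genes lower in both libraries and 0 at least 2-fold, with summed folds of 0.777 in WT and 0.829 in KO; weighted, only 1 of the 7 was lower in both, 6 stood above 0 in WT and 0 in KO, and the medians were 0.25 and -0.36, so the direction in WT depends on depth. Lipid handling genes, of which Apoe and Trem2 are known in foamy and repair macrophages, had 5 of 14 higher and 6 of 14 lower in both, and 1 higher and 10 lower with weighted comparison cells. Of 12 hypoxia and Arg1 Spp1 genes 10 were lower, with Hmox1, heme oxygenase, at 1291 CPM in WT and 413 CPM in KO members against 2136 and 994 CPM and weighted log2 ratios of -1.21 and -1.31. Of 10 p53 targets 9 were lower and 2 at least 2-fold, Phlda3 and Btg2, and the list summed to 0.652 times the comparison level in WT and 0.637 times in KO. Weighted, 8 of the 10 were lower in both, and Phlda3 had -1.58 and -1.06. Of 14 genes of macrophage growth control 13 could be measured and 0 passed 2-fold in both; Csf2ra, the GM-CSF receptor, stood at 153 and 126 CPM against 261 and 239 CPM, weighted -0.44 and -0.92.

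**Figure D5:**
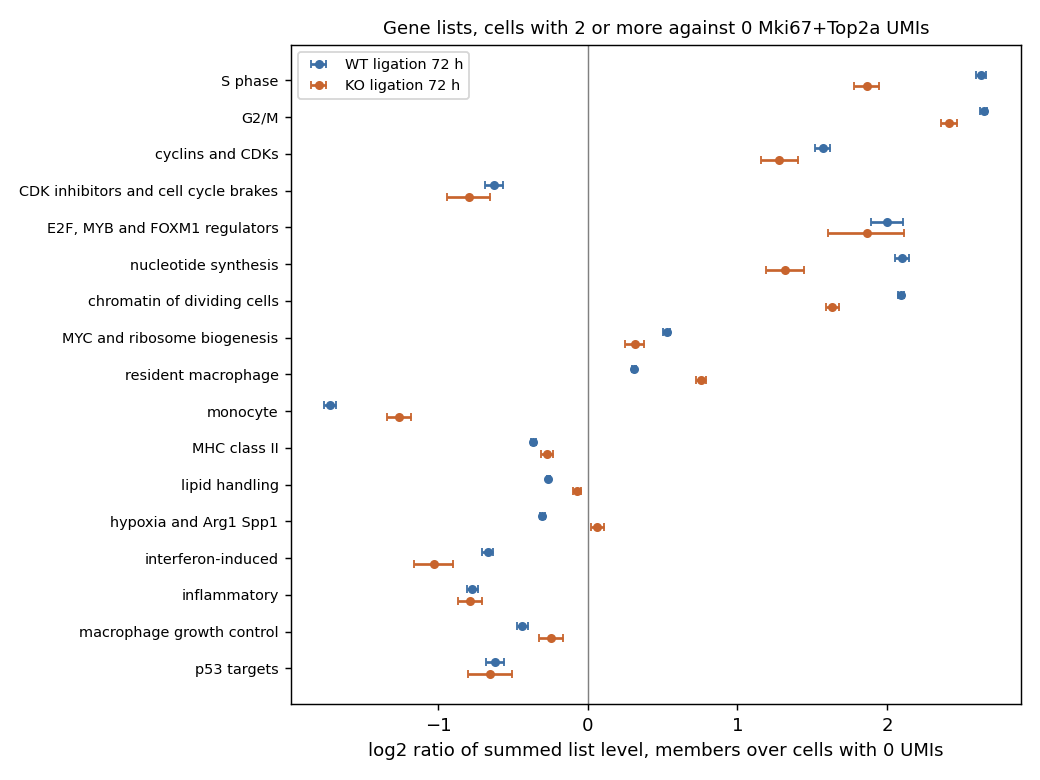
For each of the 17 gene lists, the log2 ratio of its summed level in members over comparison cells at 72 h, WT and KO, with exact 95% intervals for counting error. Lists of division genes, the inhibitors apart, stood at least 2.43-fold higher in both libraries, and the monocyte list at 0.418 of the comparison level or less.

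Members of the KO 72 h library were set beside those of WT 72 h over 7094 genes. In KO 130 genes (1.83%) were at least 2-fold higher and 220 (3.1%) at least 2-fold lower, while over 10790 genes in the comparison cells the shares were 4.86% and 0.343%. Of the 204 lower genes also measured in comparison cells 6 were 2-fold lower there too, and of the 129 higher ones 17 were 2-fold higher. By direction alone, 127 of the 204 were lower and 113 of the 129 higher in comparison cells as well. The libraries differ in depth, in stray RNA and in mice as well as in genotype, and these cannot be told apart.

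The S phase list was lower in KO members, at 0.645 times WT (interval 0.609 to 0.682), while the G2/M list was at 0.960 times (0.927 to 0.993). In comparison cells the same lists stood at 1.09 and 1.13 times. Of 43 S phase genes 1 was higher in KO members and 8 were at least 2-fold lower, and Rrm2 was among the 5 lowest genes named by rule, with 412 UMIs in WT and 14 in KO. Nucleotide synthesis stood at 0.632 times. Among members of at least 5000 UMIs, 155 in WT and 38 in KO, a setting chosen after seeing the data, the S phase list was at 0.677 times (0.639 to 0.717) and the G2/M list at 0.934 times (0.901 to 0.968), much as over all members.

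Interferon-induced genes were also lower in KO members. The list stood at 0.486 times WT (0.441 to 0.533), with 15 of 15 measured genes lower and 8 at least 2-fold, and at 0.623 times in comparison cells. Irf7, the master regulator of interferon genes, stood at 169 CPM in WT and 49.1 CPM in KO members and at 317 and 142 CPM in comparison cells. Cxcl10, an interferon-induced chemokine, stood at 135 and 36.8 CPM, carried by 16 of 159 WT and 8 of 63 KO members, and at 183 and 119 CPM in comparison cells. Ly6a, the surface antigen Sca-1, stood at 228 and 29.1 CPM, and at 291 and 117 CPM in comparison cells. AW112010 stood at 123 and 35.3 CPM in members but went the other way in comparison cells, at 71.8 and 84.8 CPM. Among genes higher in KO were Klf2, a transcription factor of quiescence, at 66.6 CPM in WT against 176 CPM in KO members, and Thbs1 at 49.4 against 129 CPM. In comparison cells Klf2 stood at 142 and 176 CPM and Thbs1 at 437 and 527 CPM, WT first. Klf2 stood at 630 and 633 CPM in kept cells outside the gate. Lars2 and Gm42418, also among the higher genes, were higher in KO comparison cells as well, by log2 differences of 1.43 and 0.84.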

How the data were processed

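Single-cell RNA libraries of 6 groups, 1 library each from 4 pooled mice, were analysed. The authors deposited unnormalized UMI counts in sparse matrices, for which the submitters' processing notes name Cell Ranger 6.0.0 and the build mm10. The gene models and later filters are not given in the sources used here. The matrices list 32285 genes.

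The gate, the members and the gene lists were chosen with earlier results of these data known. Within each library, counts of a class of cells were added up and scaled to CPM. Ratios have exact conditional Poisson intervals and shares exact Clopper-Pearson intervals at 95%, both for counting error only. A count of 0 was set to a floor of 3 UMIs over the class for a ratio. With 1 library a group there is no test and no p-value. Genes named from the lists are those with most member UMIs, up to 4 a list, and those that go against their list; others are the 10 highest and 10 lowest by median log2 ratio over libraries of at least 30 members, with one direction in each, at least 50 UMIs, at least 100 CPM in the higher class and at least 0.25 of the level outside the gate; between genotypes, the 5 highest and 5 lowest. Other list genes, such as Foxm1, Tyms, Cdkn2c and Csf2ra, were named for their role after their values were seen. A few genes that the rules name are not reported here. The ratio step was tested on simulated data. Thinned shares are exact expectations. Doublets were kept in the reported values and, as an alternative, removed by Scrublet score in scanpy 1.11.5. Work was done in Python 3.11.15 with NumPy 2.4.6, SciPy 1.17.1, pandas 2.3.3 and matplotlib 3.10.9. Alternatives changed the Mki67 and Top2a minimum, cell and gene filters, depth, weighting of cells and scaling.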

Additional observations from a re-analysis of the deposited data

Results flagged for a closer look

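In 4 cases a gene list stood above its comparison cells in members of one genotype and below in members of the other under the same surgery, and in none of them was the difference between the genotypes tested, since each group is 1 library. The hypoxia and Arg1 Spp1 list at 72 h had folds of 0.811 in WT and 1.05 in KO, a ratio of 1.29. Gene by gene, 0 of its 12 genes were higher in WT members and 2 of 12 in KO members. The median log2 ratios were -0.45 and -0.54, so the opposite direction held for the summed UMIs and not for the median gene. The interferon-induced list at 24 h after ligation had folds of 1.20 in WT and 0.396 in KO, a ratio of 0.331. These rested on 12 and 8 members. Without the 1 member rich in Prtn3, Mpo and Ctsg the WT fold was 0.955, so the opposite direction rested on that cell. The inflammatory list in sham hearts had folds of 0.819 in WT and 1.15 in KO, a ratio of 1.41, over 18 and 10 members; without cells of at least 3 dendritic UMIs the folds were 1.06 and 1.71, so the opposite direction was lost. The p53 target list in sham hearts had folds of 0.707 in WT and 1.21 in KO, a ratio of 1.71, over the same members, and 0.755 and 1.498 without those cells. Leaving cells out was chosen after seeing the data.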

How the results depend on the processing

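The shares of WT sham, KO sham, WT ligation 24 h, KO ligation 24 h, WT 72 h and KO 72 h, in that order, were 0.846, 0.460, 0.288, 0.0608, 4.27 and 0.942% with at least 4 UMIs of Mki67 and Top2a, and 6.51, 4.37, 5.04, 3.77, 11.7 and 8.08% with at least 1. Thinned to 1000 UMIs they were 0.152, 0.105, 0.0186, 0.0200, 0.719 and 0.565%, and to 3000 UMIs 0.470, 0.244, 0.170, 0.0901, 2.38 and 1.46%. With cells of at least 2000 UMIs the KO 72 h share was 3.29%. The KO to WT ratio at 72 h was 0.221 with at least 4 UMIs, 0.693 with at least 1, 0.786 and 0.615 after thinning to 1000 and 3000 UMIs, 0.654 per UMI and 0.679 in cells of at least 5000 UMIs, and it reversed to 1.19 and 1.17 with at least 1 UMI after the same thinnings; the last 4 were chosen after seeing the data, and the cause was not tested. The mean over both 72 h libraries of the S phase list's median log2 ratio was 2.67 as reported, 2.81 with at least 4 UMIs, 2.13 with at least 1, 2.01 with weighted comparison cells, 2.36 as a mean over cells, and 2.85 with a minimum of 20 UMIs or of 1 UMI a gene. For the G2/M list it was 4.43 as reported and 4.71, 3.86, 4.18, 4.17, 4.61 and 4.49 under the same settings, 4.38 with cells of at least 2000 UMIs, 4.36 relative to the median gene and 4.16 without members rich in dendritic or precursor transcripts (added after seeing the data). The 303 higher genes became 195 with at least 1 UMI of Mki67 and Top2a, 473 with 20 UMIs a gene and 727 with 1. The 173 lower genes became 88 with at least 1 UMI and 61 with weighted comparison cells. Another 55 values of these results kept within their interval or within 1.5 times. No paired analysis was possible because each group has 1 library.

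Depth limits these results. Only 2 libraries held 30 members, so gene ratios rest on them, and at 24 h most members with exactly 2 UMIs showed no division program. The KO 72 h library was the shallowest and held the most RNA of other cells. The mice of a pool could not be separated.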
